A study of Mus musculus with 6 samples.

Results

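The genes described here encode 10 transcription factors of B lymphocyte development, namely Ebf1, Pax5, Tcf3, Foxo1, Ikzf1, Ikzf3, Bach2, Irf4, Pou2af1 and Lef1, out of 21887 protein-coding genes placed on the mouse chromosomes. They were chosen by name, as known regulators of this lineage, and every open-chromatin peak in or within 20 kb of a gene's RefSeq span was taken. Peaks of all 6 samples that overlapped by at least 1 bp were joined into regions, and 142 of 62098 regions near protein-coding genes belonged to these 10 genes. The samples were lineage-depleted bone marrow cells from C57BL/6 mice, profiled by ATAC-seq, in which a transposase cuts and tags accessible DNA. There were 3 wild-type samples and 3 from mice deficient for Utx (Utx-/-), the X-linked histone demethylase gene Kdm6a. The sources name no allele, Cre driver, age or sex, and do not say whether samples came from separate animals, so p-values measure only the spread between these samples.

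B lymphocytes arise from bone marrow progenitors in steps that each depend on a few DNA-binding proteins. E2A, the product of Tcf3, and FOXO1 act early and activate Ebf1, EBF1 then opens B cell genes and activates Pax5, and PAX5 commits the cell to the lineage. Ikaros (Ikzf1) and Aiolos (Ikzf3) are zinc finger relatives, Ikaros acting in many blood lineages from the stem cell onward and Aiolos mainly in lymphocytes, while IRF4, BACH2 and the octamer coactivator encoded by Pou2af1 act in pre-B and mature B cells, and LEF1 in early lymphocytes.

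The deposited data were lists of peak positions with no read counts or scores, so the presence of a peak and its width in bp were the measures, and the depth behind them is unknown. Wild-type lists held 57405 to 57917 peaks and knockout lists 44576 to 50249, with knockout 2 the longest of the knockout lists. Near the targeted gene Kdm6a the samples had 4, 5 and 5 peaks in wild type and 6, 6 and 5 in knockout, and peak lists cannot check which exon was removed. Lineage depletion removes mature cells with a mixture of antibodies, which commonly includes an antibody to a B cell surface antigen. Of 10 stem and progenitor genes checked (such as Kit and Flt3), 9 had a region with a peak in all 6 samples, and the exception was Procr, with 2, 2 and 1 peaks in wild type and 0 in each knockout sample. All 10 defining B lineage genes checked (such as Cd79a and Rag1) also had a region within 20 kb that was open in all 6 samples.

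Start sites are shown first, because the Pax5 start and the first pair of Lef1 starts had peaks in knockout samples only. The 250 bases before a start site come from RefSeq (GRCm38.p6, the assembly of mm10), which gave 14 start sites for 9 of the 10 genes in the table used and none for Ikzf3. Capitals mark bases that lay under a peak of at least 1 knockout sample and of no wild-type sample. The Pax5 sequence is chr4:44710695-44710944 on the minus strand and the Lef1 sequence, before the first of its 4 listed start sites, is chr3:131110047-131110296 on the plus strand.
Pax5: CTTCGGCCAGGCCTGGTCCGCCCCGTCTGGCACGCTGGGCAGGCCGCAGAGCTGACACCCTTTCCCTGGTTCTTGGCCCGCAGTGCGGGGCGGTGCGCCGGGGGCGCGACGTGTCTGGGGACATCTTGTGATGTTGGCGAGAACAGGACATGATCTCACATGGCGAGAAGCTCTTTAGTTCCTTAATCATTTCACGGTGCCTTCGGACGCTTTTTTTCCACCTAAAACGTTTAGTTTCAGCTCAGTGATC
Lef1: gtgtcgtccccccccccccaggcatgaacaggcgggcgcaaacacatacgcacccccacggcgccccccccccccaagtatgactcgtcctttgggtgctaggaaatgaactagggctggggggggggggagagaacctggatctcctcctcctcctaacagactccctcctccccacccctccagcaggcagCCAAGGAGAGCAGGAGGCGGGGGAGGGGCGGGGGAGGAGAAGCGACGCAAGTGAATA

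All 250 bases before the Pax5 start were inside a peak in each of the 3 knockout samples and in no wild-type sample. Before the Lef1 start, 0, 15 and 57 bases nearest the start were covered in knockout 1, 2 and 3. Across 21263 start sites of protein-coding genes, 0.611% had a peak within the table's 300 bp window (250 bases before and 50 after the start) in all knockout and no wild-type samples. Of the 14 member start sites, 3 had this pattern, the Pax5 site and a pair of Lef1 sites 26 bp apart, at 131110297 and 131110323, that share their peaks. Another 7 had a peak in all 6 samples, 4 had none in any sample and 0 had peaks in wild type only.

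A second pair of sequences shows motif letters of B lineage factors, in capitals, before the starts of Ebf1 and Foxo1, early factors of the lineage. Windows of Bach2 and Lef1 also held such letters and are named after them. The printed sequences precede the first listed start of Ebf1, chr11:44617850-44618099, and the start of Foxo1, chr3:52268087-52268336, both on the plus strand.
Ebf1: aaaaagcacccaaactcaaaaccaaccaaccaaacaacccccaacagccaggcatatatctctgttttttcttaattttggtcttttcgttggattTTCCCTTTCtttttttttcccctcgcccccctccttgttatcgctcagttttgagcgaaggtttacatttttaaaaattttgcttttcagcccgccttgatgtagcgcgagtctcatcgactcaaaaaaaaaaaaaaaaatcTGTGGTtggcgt
Foxo1: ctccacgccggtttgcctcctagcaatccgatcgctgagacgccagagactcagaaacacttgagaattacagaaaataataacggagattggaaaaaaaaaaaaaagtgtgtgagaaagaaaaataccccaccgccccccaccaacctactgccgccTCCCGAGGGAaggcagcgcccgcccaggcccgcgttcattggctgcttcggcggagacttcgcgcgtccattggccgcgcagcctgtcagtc

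In the Foxo1 sequence the capitals are an EBF motif (TCCCNNGGG), which was matched on both strands at positions that overlap, and which 6.24% of all such 250-base windows hold. In the Ebf1 sequence they are the IRF motif GAAANNGAA, read on the opposite strand (6.84% of windows), and the RUNX motif TGTGGT (12.4%). The other motifs searched on both strands were CAGGTG for E2A, GAGGAAG for PU.1, GTAAACA for FOXO, ATGCAAAT for the octamer, CTTTGA for LEF and AGATAA for GATA, found in 16.9%, 10.3%, 2.62%, 1.58%, 12.7% and 8.81% of windows. Among the 14 member windows, CTTTGA was in 2 (Bach2 and the last Lef1 start) and the other 5 of these were in 0. These matches describe letters only. The Foxo1 window lay under peaks in all 6 samples and the Ebf1 window under none.

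Over the 10 genes, knockout samples had more peaks from shorter lists. Wild-type samples 1, 2 and 3 had 94, 93 and 91 peaks near the genes and knockout samples 99, 114 and 110, so the groups did not overlap. The means were 92.7 ± 1.53 (SD, n = 3) and 108 ± 7.77 (n = 3), a difference of 15. As a share of each sample's own list this was 0.164%, 0.161% and 0.158% in wild type and 0.219%, 0.227% and 0.247% in knockout, a ratio of 1.44. The bases under these peaks numbered 51197 ± 675 bp in wild type and 71958 ± 8400 bp in knockout (SD, n = 3 each), a ratio of 1.41, while the whole lists covered fewer bases in knockout (ratio 0.844). No p is given for these sums, because the genes were chosen with earlier results of the same data known.

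**Figure D1:**
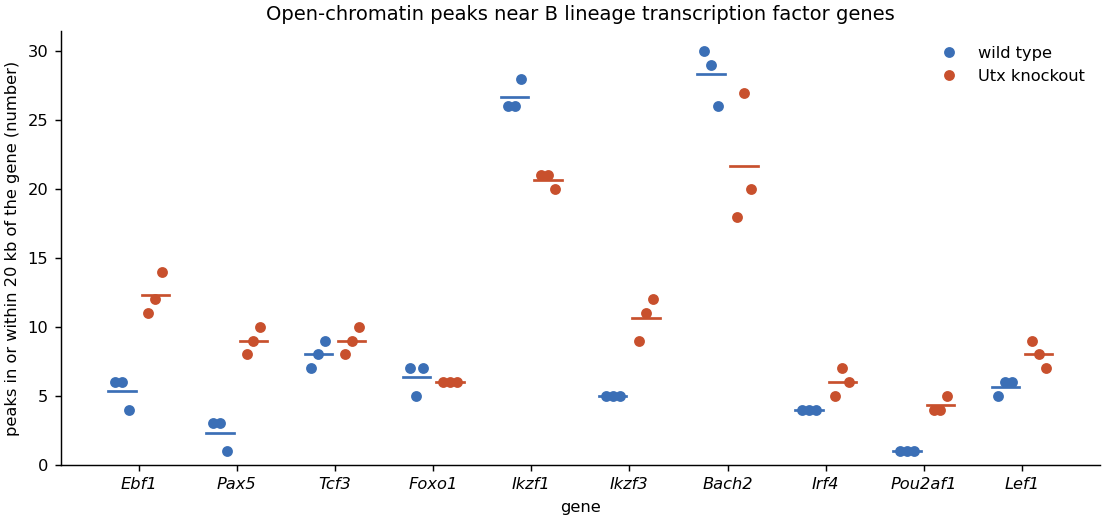
Number of peaks in or within 20 kb of each gene (vertical axis) in the 3 wild-type (blue) and 3 Utx-knockout (red) samples, 1 point per sample and a line at each group mean. Knockout points lie above all wild-type points for Ebf1, Pax5, Ikzf3, Irf4, Pou2af1 and Lef1, and below them for Ikzf1.

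A region was called gained when all 3 knockout samples and no wild-type sample had a peak there, and lost in the reverse case. Of the 142 regions, 22 (15.5%) were gained, where 4.05% of all regions near protein-coding genes were, and 9 (6.34%) were lost, where 10.7% were. Gained regions lay near 8 of the 10 genes, all but Foxo1 and Ikzf1, against 13.9% of genes with a region, and lost regions near 4, Ebf1, Tcf3, Ikzf1 and Lef1, against 36.3%. The members had a median of 11.5 regions each and all genes with a region a median of 5, so these gene percentages are not matched on the number of regions. Peak numbers were higher in every knockout than in every wild-type sample for 6 members (4.24% of all genes with a peak) and lower for 1 (27.6%), and they overlapped for Tcf3, Foxo1 and Bach2. Of the 22 gained regions 13 lay inside the gene, as did 8 of the 9 lost ones.

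For a single gene, 3 samples against 3 cannot give a two-sided exact permutation p under 0.1. The 7 members without overlap all had p = 0.1 and, with Benjamini-Hochberg adjustment over 16985 genes, an adjusted exact permutation p of 0.314, the smallest that any gene reached, so none passed 0.05.

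**Figure D2:**
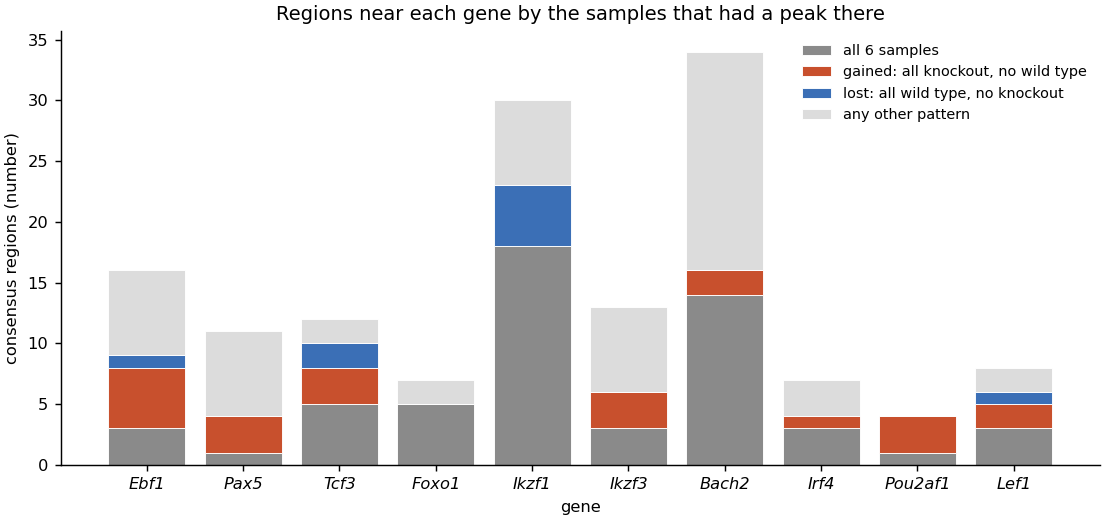
Number of consensus regions near each gene (vertical axis), split into regions with a peak in all 6 samples, gained, lost and any other pattern. Ebf1 has the most gained regions, 5 of 16, and Ikzf1 the most lost, 5 of 30.

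Ebf1, the pioneer-like factor that opens B cell genes, had more peaks around its beginning and along the gene in knockout samples. It lies on chromosome 11 (44618100 to 45008096). Peak numbers were 6, 6 and 4 in wild type and 11, 12 and 14 in knockout, a difference of 7. Every knockout sample was above every wild-type sample. The widest gained region, inside the gene at 44764435 to 44765414, had peaks of 754, 944 and 940 bp in knockout. Gained regions of 427 ± 95.6 bp (SD, n = 3) and 362 ± 46.2 bp in knockout lay at 44950324 to 44950843 and at 44624563 to 44624994, and the other 2 measured 334 and 262 bp on average.

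Just before the Ebf1 gene, peaks present in all samples were wider in knockout. The region 6273 bp before it (44610865 to 44611827) measured 217, 289 and 324 bp in wild type and 690, 963 and 797 bp in knockout, a ratio of 2.95, and the region 621 bp before it (44616445 to 44617479) 406 ± 16.3 bp and 909 ± 110 bp (SD, n = 3 each). Both had exact permutation p = 0.1, the smallest possible. Against this direction, a region inside the gene at 44897253 to 44897702 was lost, with peaks of 319, 410 and 318 bp in wild type. The nearest gained region lay farther along the gene, at 44901771 to 44902082. Another region with a peak in knockout 2 and 3 alone (44612642 to 44613662) measured 1021 and 491 bp.

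Pax5, the commitment factor, had the lowest wild-type peak number of the members after Pou2af1. It lies on the minus strand of chromosome 4 (44524748 to 44710694). Wild-type samples had 3, 3 and 1 peaks and knockout samples 8, 9 and 10, a difference of 6.67. The groups stood far apart relative to their spread (SD 1.15 and 1, n = 3 each). All 3 gained regions lay within 5 kb of the start. The region at 44710596 to 44711409, which holds the start site sequence above, had peaks of 408, 781 and 674 bp in knockout. The others, at 44709038 to 44709758 and 44705810 to 44706477, measured 685 ± 34.3 bp and 596 ± 81.7 bp.

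Deeper in Pax5 the same direction was seen in regions that wild-type samples shared. A region at 44703953 to 44705646 was open in all 6 samples, with 487, 826 and 505 bp in wild type and 840, 1180 and 1603 bp in knockout. The groups did not overlap, although the highest wild-type and the lowest knockout value were close. A further pair inside the gene, at 44671037 to 44671976 and 44672521 to 44673400, had peaks in all knockout samples and in 1 and 2 of the wild-type samples. In all, 10 of the 11 Pax5 regions were in more knockout than wild-type samples and 0 in fewer.

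**Figure D3:**
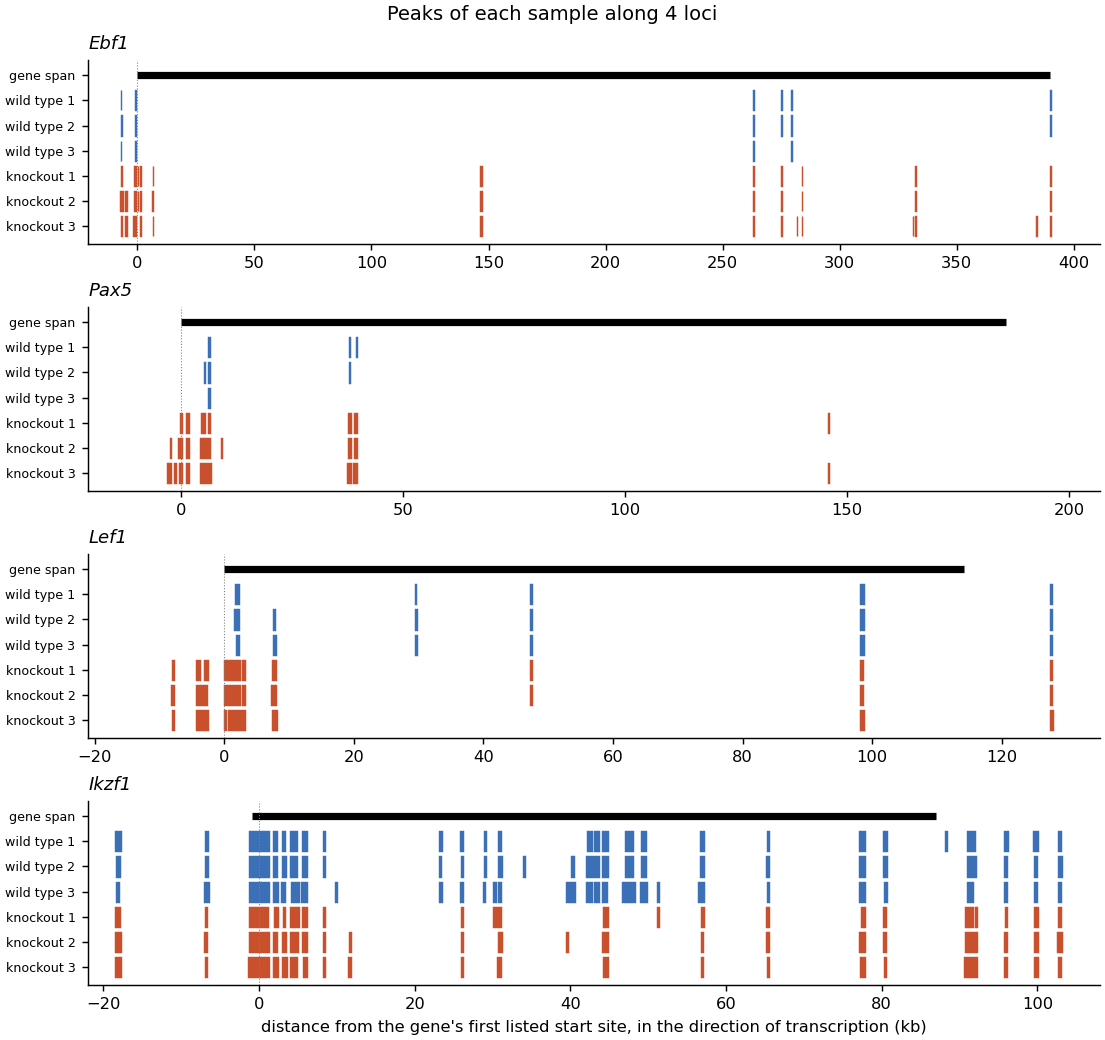
Peaks of each sample (rows, blue wild type and red knockout) along Ebf1, Pax5, Lef1 and Ikzf1, by distance in kb from the first listed start site in the direction of transcription, with the gene span as a black bar. Peaks carry a thin outline so that narrow ones can be seen. Knockout rows hold further peaks near the starts of Ebf1, Pax5 and Lef1, and wild-type rows of Ikzf1 hold a cluster of peaks in the middle of the gene that knockout rows lack.

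Tcf3, which encodes E2A, had similar peak numbers in both groups but peaks in partly different places. It lies on the minus strand of chromosome 10 (80409541 to 80433976), with 7, 8 and 9 peaks in wild type and 8, 9 and 10 in knockout, so the groups overlapped (exact permutation p = 0.5). Of its 12 regions 3 were gained and 2 lost. Inside the gene a gained region at 80431635 to 80432297 had 587, 453 and 545 bp in knockout. The neighbouring region at 80429433 to 80430842, open in all samples, measured 216, 427 and 322 bp in wild type and 1074, 1165 and 1410 bp in knockout, a ratio of 3.78.

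The lost Tcf3 regions lay on each side of these. A region at 80421605 to 80422417 inside the gene had 582, 579 and 813 bp in wild type and a region 1778 bp outside the gene on its start side at 80435754 to 80436218 had 437, 358 and 433 bp. The other gained regions lay farther out on the same side, 9012 and 10322 bp from the gene. Width at the Tcf3 start site was near equal, 1522 ± 50.2 bp in wild type and 1498 ± 45.9 bp in knockout (SD, n = 3 each; exact permutation p = 0.5). The 20 kb around Tcf3 also hold Mbd3 and Uqcr11, and a region overlapping Uqcr11 was narrower in every knockout sample (1309 ± 45.9 against 748 ± 232 bp).

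Foxo1, the forkhead factor that acts with E2A upstream of Ebf1, had neither gained nor lost regions, or 1 lost region without wild type 2. It lies on chromosome 3 (52268337 to 52350109), and its peak numbers were 7, 5 and 7 in wild type and 6 in each knockout sample. The groups overlapped (exact permutation p = 1). The bases under these peaks did not overlap, with 3569, 3019 and 3646 bp in wild type and 4189, 4586 and 4416 bp in knockout (exact permutation p = 0.1). Of its 7 regions 5 were open in all samples. The region just inside the start, at 52269612 to 52270419, measured 376, 551 and 354 bp in wild type and 711, 775 and 769 bp in knockout, a ratio of 1.76, with no overlap. At the start site itself the widths overlapped, with 1476, 1375 and 1826 bp against 1919, 1958 and 1766 bp.

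Pou2af1, the B cell coactivator of octamer factors, had the plainest pattern. It lies on chromosome 9 (51213690 to 51240079), and each wild-type sample had 1 peak near it where knockout samples had 4, 4 and 5. All wild-type peaks sat at the start site (51212591 to 51214178), at 689, 592 and 607 bp against 1397, 1588 and 1571 bp in knockout, a ratio of 2.41. The other 3 of its 4 regions were gained. They lay 2286 bp before the gene at 51210846 to 51211404 (445 ± 28.0 bp in knockout, SD, n = 3), and inside it at 51215305 to 51216232 (542 ± 283 bp) and 51225505 to 51226031 (505 ± 5.20 bp). The middle of these varied most between knockout samples, at 252, 818 and 556 bp.

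Irf4, which drives light chain recombination and later plasma cell formation, showed its difference mainly as width. It lies on chromosome 13 (30749233 to 30766981), with 4 peaks in each wild-type sample and 5, 7 and 6 in knockout (exact permutation p = 0.1, and p = 0.3 when peaks within 50 kb were counted). The start region at 30748778 to 30751597 measured 563, 458 and 519 bp in wild type and 2236, 2721 and 2682 bp in knockout. The ratio, 4.96, was the largest of the 56 member regions open in all 6 samples. The single gained region, 11869 bp before the gene at 30736636 to 30737364, had 458, 720 and 399 bp. Regions inside the gene at 30760867 to 30761581 and 30764285 to 30764664 had peaks in knockout 2 and 3 only, so without knockout 1 Irf4 had 3 gained regions. A region 10446 bp before the gene had a peak in all wild-type samples and in knockout 2, and was lost without that sample, giving 1 lost region.

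Lef1, an HMG-box factor of early lymphocytes that also responds to WNT signals, had a wide open stretch over its start in knockout samples. It lies on chromosome 3 (131110297 to 131224357), with 5, 6 and 6 peaks in wild type and 9, 8 and 7 in knockout. That difference in number, 2.33, rested on peaks outside the gene, since inside the gene span alone it was 0 (exact permutation p = 1), with 0 gained and 1 lost region. The start region (131110240 to 131113462) held 517, 725 and 548 bp of peaks in wild type and 2834, 2852 and 2951 bp in knockout, a ratio of 4.83. The wild-type peaks lay near the third listed start site at 131112791 and covered 8, 43 and 57 bp of its 300 bp window, where knockout peaks covered 207, 192 and 300 bp. Because the peaks overlap, this counts as a region open in all samples, although its part at the first pair of start sites was covered in knockout only.

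Before the Lef1 gene, the gained region at 131105980 to 131107814 had 1204, 1649 and 1823 bp of peaks in knockout, the widest of the 22 gained regions, and a second at 131102137 to 131102528 had 348 ± 32.4 bp (SD, n = 3). Inside the gene, a region at 131117534 to 131118400 had 0, 339 and 313 bp in wild type and 656, 826 and 799 bp in knockout. Deeper in, a narrow region at 131139705 to 131140009 was lost, with 259, 261 and 271 bp in wild type. The region around 100 kb along the gene (131208438 to 131209081) overlapped between groups, at 601 ± 31.1 and 520 ± 66.1 bp.

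**Figure D4:**
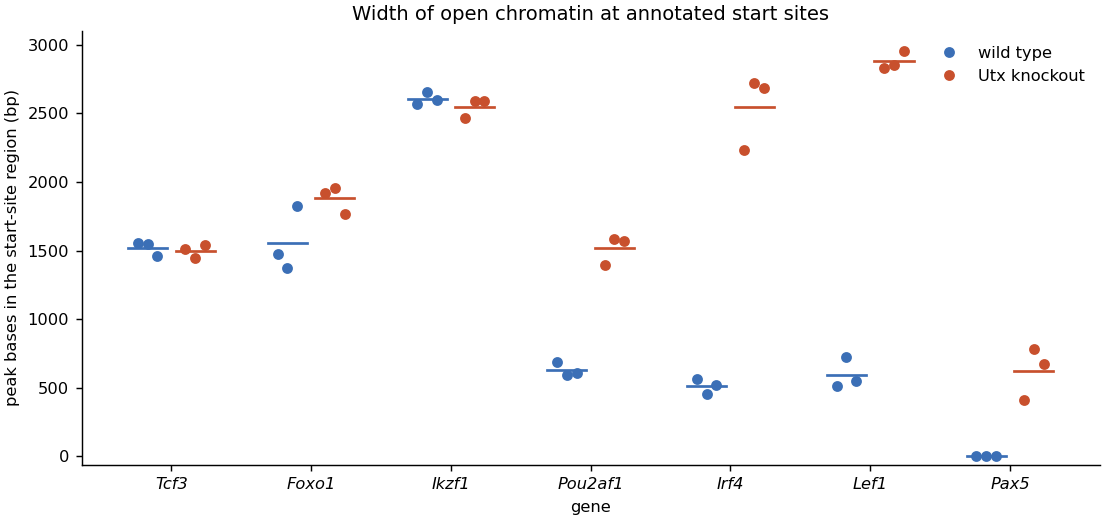
Peak bases (bp, vertical axis) in the region at the start site of 7 genes, 1 point per sample with a line at each group mean, blue wild type and red knockout. Knockout points lie above wild type for Pou2af1, Irf4, Lef1 and Pax5, and the groups overlap for Tcf3, Foxo1 and Ikzf1.

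Of the Ikaros family genes on chromosome 11, Ikzf1 had fewer peaks in every knockout sample and Ikzf3 more. Ikzf1 (11684962 to 11772930) had 26, 26 and 28 peaks in wild type and 21, 21 and 20 in knockout, a difference of -6 with no overlap. Of its 30 regions 5 were lost and 0 gained (1 gained without knockout 1), and 18 were open in all samples. Its start region at 11684553 to 11687246 was of near equal width, 2607 ± 45.6 bp in wild type and 2549 ± 71.4 bp in knockout (SD, n = 3 each; exact permutation p = 0.4).

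All 5 lost Ikzf1 regions were inside the gene. The widest, at 11727931 to 11729656, had 1277, 1671 and 1492 bp of peaks in wild type and none in knockout. Next to it, at 11732610 to 11734183 and 11734899 to 11735718, lost regions measured 1239 ± 290 bp and 675 ± 126 bp in wild type. Between the first and second of these a region at 11729973 to 11730782 was open in all 6 samples, with 724 ± 67.3 and 669 ± 60.0 bp. The other lost regions, at 11714698 to 11715127 and 11709051 to 11709380, were narrower, at 307 ± 22.0 and 281 ± 69.0 bp. A region at 11742270 to 11743105 was open in all samples and narrower in every knockout sample, at 538, 504 and 836 bp against 372, 290 and 335 bp.

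Ikzf3 (98464610 to 98546031) had 5 peaks in each wild-type sample and 9, 11 and 12 in knockout, a difference of 5.67. Every knockout sample was higher. Its 3 gained regions (5 without knockout 1) lay inside the gene at 98491468 to 98492211 (557 ± 63.4 bp in knockout, SD, n = 3) and 98525043 to 98525621 (451 ± 132 bp) and 1066 bp beyond its higher coordinate end at 98547097 to 98547748 (574 ± 98.2 bp). A region over that end, at 98545528 to 98546232, had 0, 0 and 199 bp in wild type and 650, 697 and 669 bp in knockout. Inside the gene, 98492841 to 98493804 was open in all samples and measured 279 ± 14.5 bp in wild type and 846 ± 168 bp in knockout, a ratio of 3.04. The window also holds Mien1, Grb7 and Zpbp2, and the region overlapping Mien1 measured 1145 ± 119 bp in wild type and 2367 ± 279 bp in knockout, without overlap.

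Ikzf2, which encodes Helios, the relative expressed in stem cells and T cells, was not a member and is given for comparison. It had 16, 15 and 17 peaks in wild type and 7, 7 and 6 in knockout, with 7 of 18 regions lost and 0 gained. Like Ikzf1 it had fewer peaks in every knockout sample.

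Bach2, a repressor that holds back plasma cell and myeloid genes, had fewer peaks on average in knockout samples but with overlap. It lies on chromosome 4 (32238413 to 32586109), with 30, 29 and 26 peaks in wild type and 18, 27 and 20 in knockout (exact permutation p = 0.2). The overlap came from knockout 2, without which the difference of -6.67 became -9.33 (exact permutation p = 0.1). Inside the gene span alone the difference was -8.33, within 50 kb -7.33 and with the widest 50% of each list -3, each with exact permutation p = 0.1. Of its 34 regions 2 were gained, both before the gene, at 32219394 to 32220453 with 870, 911 and 1060 bp in knockout and at 32231609 to 32232184 with 371, 576 and 484 bp. None was lost, but 3 were without knockout 2, the sample with 27 peaks, and 2 without wild type 3. In all, 16 regions were in more wild-type than knockout samples and 4 in fewer.

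At the beginning of Bach2 the peaks were wider in every knockout sample. Its only listed start site, at 32417435 in the middle of the gene span, had no peak in any sample. The region over the beginning of the gene span, at 32238107 to 32240435, had 1655 ± 91.1 bp in wild type and 2194 ± 125 bp in knockout, and the next at 32247699 to 32251492 had 2588 ± 64.1 and 3287 ± 441 bp (SD, n = 3 each). Both had no overlap (exact permutation p = 0.1). The largest width ratio, 1.56, was beyond the other end of the gene at 32587650 to 32588730, with 593, 608 and 527 bp against 609, 1010 and 1073 bp, where the highest wild-type and the lowest knockout value were close.

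Among all 56 member regions open in every sample, 17 were wider in every knockout sample than in every wild-type sample and 2 were narrower, at Uqcr11 beside Tcf3 and inside Ikzf1. Over 26641 such regions near genes, 11.9% were wider and 27.7% narrower. The median log2 ratio of knockout to wild-type width was 0.06 for the members and -0.10 over all such regions. The member median became -0.02 when a sample's peaks had to cover 50% of the region, so its sign depends on how regions are counted. Regions with a ratio above 2 belonged to Ebf1, Tcf3, Ikzf3, Irf4, Pou2af1 and Lef1. Gained member regions had a median knockout width of 515 bp, against 394 bp for all 2516 gained regions near genes.

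Genes that act beside or after these factors were counted in the same way. Of 26 B cell receptor, recombinase and surface genes, all had a region, 15 had a gained region and 5 a lost one. Over all genes with a region these shares were 13.9% and 36.3%, not matched on the number of regions. Their regions were gained in 22 of 218 cases (10.1%) and lost in 6 (2.75%), against 4.05% and 10.7% of all regions near genes. Peak numbers were higher in every knockout sample for 7 genes and lower for 1, against 4.24% and 27.6% of all genes with a peak. Peaks shared by neighbours count for each gene in these gene numbers, but shared regions were not counted again among the 218. Vpreb1 and Igll1 had identical peak numbers in every sample. Rag2 had the most changed regions, 4, and Dntt, Cd22, Blk and Ciita tied with 3 each, of which the first 2 in list order are described. Rag2 is a subunit of the recombinase, with 5, 3 and 3 peaks in wild type and 7, 10 and 8 in knockout, most of them shared with its neighbour Rag1. Dntt, the terminal transferase, had 8, 9 and 9 peaks against 8 in each, and Cd22, an inhibitory receptor, 2, 3 and 4 against 6, 6 and 8.

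Of 24 other transcription factors of lymphoid development, 11 had a gained and 9 a lost region, against 13.9% and 36.3% of all genes with a region. Their regions were gained in 30 of 442 cases (6.79%) and lost in 25 (5.66%), against 4.05% and 10.7% of all regions near genes. Peak numbers were higher in every knockout sample for 4 genes and lower for 5, against 4.24% and 27.6% of all genes with a peak. Foxp1, a forkhead factor needed for early B cells, had 12 gained and 1 lost of 81 regions, with 58, 52 and 47 peaks in wild type and 59, 70 and 58 in knockout. Bcl11a, a zinc finger factor needed for lymphoid cells, lost 5 of its 33 regions and gained none. Its peaks numbered 26, 18 and 25 in wild type and 11, 15 and 17 in knockout, lower in every knockout sample. Zeb2, a repressor of the zinc finger homeobox kind, also lost 5 regions and gained 0, with 21, 26 and 23 peaks in wild type and 16, 10 and 12 in knockout.

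**Figure D5:**
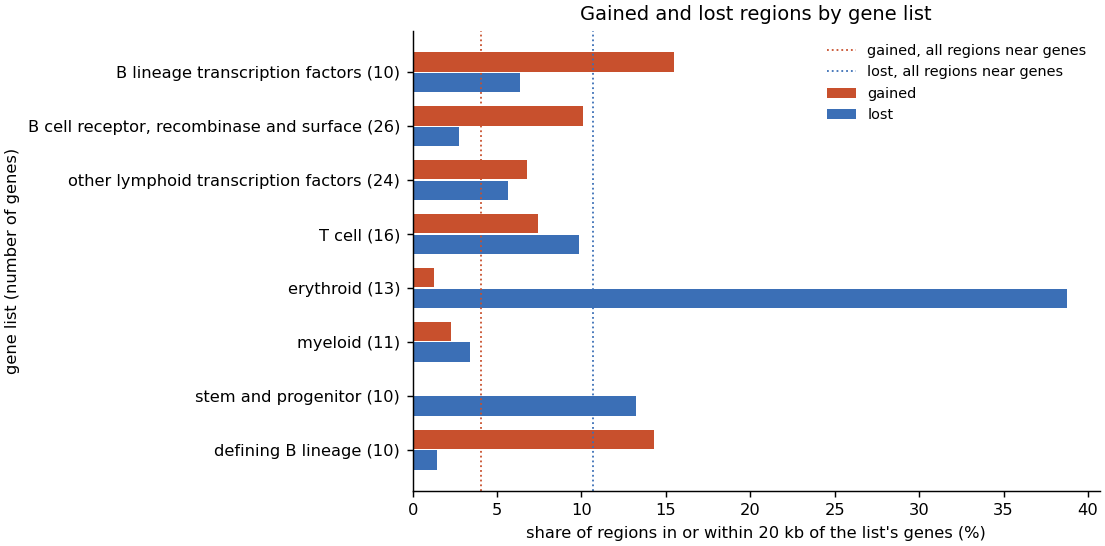
Share of regions (%, horizontal axis) that were gained (red) or lost (blue) in or within 20 kb of the genes of each list, with the number of genes in brackets and dotted lines at the shares over all regions near protein-coding genes (4.05% gained, 10.7% lost). The B lineage, other lymphoid and T cell lists lie above the gained line and below the lost line, and the erythroid list has 38.8% lost.

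These are bulk samples, so more cells of a type and more open chromatin per cell cannot be told apart. Defining markers of B lineage cells showed the same direction in their summed peaks. The peaks near 10 such genes numbered 44, 41 and 42 in wild type and 52, 66 and 58 in knockout. Of 70 regions 10 (14.3%) were gained and 1 (1.43%) lost, against 4.05% and 10.7% of all regions near genes. As a share of each sample's list, the ratio of knockout to wild type was 1.71 for these genes and 1.44 for the members. All 10 had peaks in both groups. Of them 2 (Rag1 and Rag2) had more in every knockout sample, against 4.24% of all genes with a peak. The other 8 overlapped and 0 had fewer. Peaks shared by neighbours, such as Rag1 and Rag2, count for each gene in the gene numbers. In the summed peaks and regions they were not counted again. Vpreb1 and Igll1 had identical peak numbers in every sample, 5, 5 and 5 in wild type and 4, 6 and 5 in knockout. Among the 10 genes, Cd79a had 8, 6 and 5 peaks against 9, 11 and 8, and Vpreb3 6 in each against 8, 7 and 6. The part of these markers in the results for the members was not tested.

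Other cell types were checked by their own lists. Near 16 T cell genes 6 of 81 regions were gained and 8 lost, with 57 to 61 peaks in wild type and 51 to 55 in knockout, led by Cd247 (5 lost), Cd2 (3 gained), Zap70 (2 gained) and Themis (2 lost), and Cd8a had 0 peaks in every sample. Near 13 erythroid genes 31 of 80 regions were lost and 1 gained, with 66 to 73 peaks against 29 in each knockout sample, and Hbb-bt, Hbb-bs and Ank1 lost 7, 6 and 6, the neighbouring globin genes sharing peaks. Hba-a2 and Slc4a1 had 0 peaks in every knockout sample. Near 11 myeloid genes 3 of 89 were lost and 2 gained, with 70 to 77 peaks against 57 to 70. Itgam had the 2 gained regions, and Mpo, Csf3r and Prtn3 had 1 lost each. Near the 10 stem and progenitor genes 11 of 83 were lost and 0 gained, with 68 to 69 peaks against 43 to 50, and Slamf1 and Kit had 3 and 2 of the losses. Since the knockout lists were shorter, the numbers also need their share of each list. As a ratio of knockout to wild type, that share was 0.513 for the erythroid and 0.827 for the stem and progenitor list, but 1.07 for the myeloid and 1.11 for the T cell list. The regions lost were 38.8% near erythroid, 13.3% near stem and progenitor, 9.88% near T cell and 3.37% near myeloid genes. Over all regions near genes 10.7% were lost, so by this measure alone the T cell and stem and progenitor values were close. By peak number, 8 of the 10 stem and progenitor genes were lower in every knockout sample, against 27.6% of all genes with a peak. The same held for 12 of 13 erythroid, 3 of 16 T cell and 3 of 11 myeloid genes. The 0 gained stem and progenitor regions compare with 4.05% of all regions near genes. The part of these cell types in the results for the members was not tested.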

How the data were processed

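ATAC-seq peak lists of 3 wild-type and 3 Utx-knockout samples were used as deposited. The authors called peaks per sample with MACS2 on mm10, per the submitters' processing notes, and the file labels carry a p threshold of 1e-11. For the version, aligner, read filters and insertion shift the sources give nothing. The files hold chromosome, start and end only and were read as BED. Because the narrowest interval is 199 bp, starts may be off by 1 bp. Genes came from the RefSeq table of GRCm38.p6 (all 10 members and all list genes matched). Overlaps, regions, calls, widths (peak bases of a sample within a region), motif searches and exact permutation tests were computed in Python 3.11.15 with numpy 2.4.6, and checked on simulated peak lists. The peak number test ran over 16985 genes with a peak. Motifs in regions were not searched, since no genome sequence was used. Named regions were every lost region, up to 3 widest gained regions per member and the open region with the largest width change; from each list, up to 3 genes with most changed regions. Others were named after their values were seen. The members and lists were chosen with earlier results of these data known. Alternatives varied distance, peak selection, region calling and samples. Some list genes are not reported here by name.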

Additional observations from a re-analysis of the deposited data

How the results depend on the processing

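Settings were compared for 6 quantities over the 10 genes. Gained regions numbered 22 and fell to 13 inside the gene spans alone, and ranged from 15 to 33 in the other settings; lost regions numbered 9 and rose to 14 within 50 kb. The excess of knockout peaks, 15, was 5.67 inside the spans and 29.7 with lists cut to equal length by width. The share difference, 0.070 percentage points, was 0.0406 inside the spans, 0.0845 within 50 kb and 0.0926 with the widest 50% of peaks. The excess of peak bases, 20761 bp, was 10243 bp inside the spans. The median log2 width ratio, 0.06, was 0.127 with the widest 50% of peaks, 0 with windows of 500 bp, which fix the width, and -0.023 with 50% coverage; without 1 sample it ran from 0.013 to 0.142. For single genes, the peak number difference of Tcf3 turned to -0.33 inside the span, and that of Foxo1 to 1 with the widest 50% and 2 with equal lists (exact permutation p = 0.1). Lef1 fell from 2.33 to 0 inside the span (exact permutation p = 1), Irf4 stayed at 2 within 50 kb but with exact permutation p = 0.3, and Bach2 went from an exact permutation p of 0.2 to 0.1 inside the span, within 50 kb, with the widest 50% and without knockout 2. The cause was not tested. Of 140 values each for gained and lost regions of single genes, 26 and 17 moved by over 1.5 times or changed to or from 0. The deviations of same-numbered samples were weakly correlated (-0.021, 0.0070 and 0.023), as were those of samples with different numbers (-0.047 to 0.042). Such values cannot tell whether same-numbered samples were paired. With the replicate block the peak excess stays 15, and no gene can go below an exact p of 0.25. No read depth is known, so an absent peak is not shown to be closed chromatin.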
